A study of Arabidopsis thaliana with 9 samples.

Results

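WUS and its relatives of the WOX family are homeobox transcription factor genes, and FIE occupancy was examined at 10 of them: WUS, WOX1, WOX2, WOX3, WOX4, WOX5, WOX8, WOX9, WOX11 and WOX12. They were chosen by name among 27444 protein-coding genes of the nuclear chromosomes, and every deposited FIE peak that overlapped a gene body or its 5 kb flanks by at least 1 bp was taken. The series measured FIE binding with ChIP-seq in 9 libraries from Arabidopsis thaliana plants of strain Ws, aged 30 hr. Anti-FIE precipitates were made in 3 replicates from the wild type, which had no transgene, and in 3 from plants that carried the transgenes pRNAi-BPC and pRNAi-ZnF (called the double knockdown). The other 3 libraries were input chromatin of strain Ws without a transgene. The labels name neither the genes that the RNA interference transgenes target nor the promoter that drives them, and the series holds no input of the knockdown plants. The authors deposited 1 peak list for each anti-FIE group, so the lists give no spread between replicates, and every comparison below is a description with no test. The name of the knockdown list is an abbreviation left unexplained in the labels. It was assigned to the double knockdown as the only other anti-FIE group.

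FIE is a WD-repeat subunit of Polycomb repressive complex 2 (PRC2), which methylates lysine 27 of histone H3 and keeps developmental genes silent outside the cells that need them. WUS is active in a small organising centre of the shoot meristem, where it maintains the stem cells above it, and other WOX genes act in equally restricted places: WOX5 in the root quiescent centre, WOX4 in the vascular cambium, WOX1 and WOX3 at leaf margins, and WOX2, WOX8 and WOX9 in the early embryo. BPC proteins bind GA-repeat DNA. Since each library pools the chromatin of many cells, strong occupancy in few cells and weak occupancy in many cannot be told apart.

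In the wild type, FIE peaks lay on the bodies of 6 of the 10 genes, WUS, WOX1, WOX2, WOX3, WOX9 and WOX11. Of all protein-coding genes 9.94% had such a peak. In the double knockdown list a peak lay on 1 of the 10 bodies, that of WOX12, against 4.39% of all protein-coding genes. All 6 genes bound in the wild type therefore lacked a knockdown peak on the body, as did 92.4% of all protein-coding genes bound in the wild type. With the 5 kb flanks included, wild-type peaks were found at 7 of the 10 genes and a knockdown peak at 1. The shares of all protein-coding genes were 35.7% and 18.4%. Of the 7, 6 had no knockdown peak in this window, as was the case for 80.5% of all protein-coding genes with a wild-type peak there. WOX4, WOX5 and WOX8 had no peak in either list within this window.

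These windows held 30 wild-type peaks, 10 on gene bodies and 20 in flanks, and 0 of the 30 overlapped a knockdown peak. Of the 5047 wild-type peaks in the windows of all protein-coding genes, 302 did (5.98%), so a lack of overlap was the common case. The body peaks had folds from 2.85 to 8.34 and lengths from 217 to 3196 bp. The flank peaks reached further up, with folds from 2.95 to 22.5 and lengths from 95 to 1669 bp. Fold here is the authors' enrichment of the summit over background from the peak caller. It is used within 1 list, because it depends on sequencing depth. Over the whole wild-type list of 6540 peaks the median fold was 3.29.

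**Figure D1:**
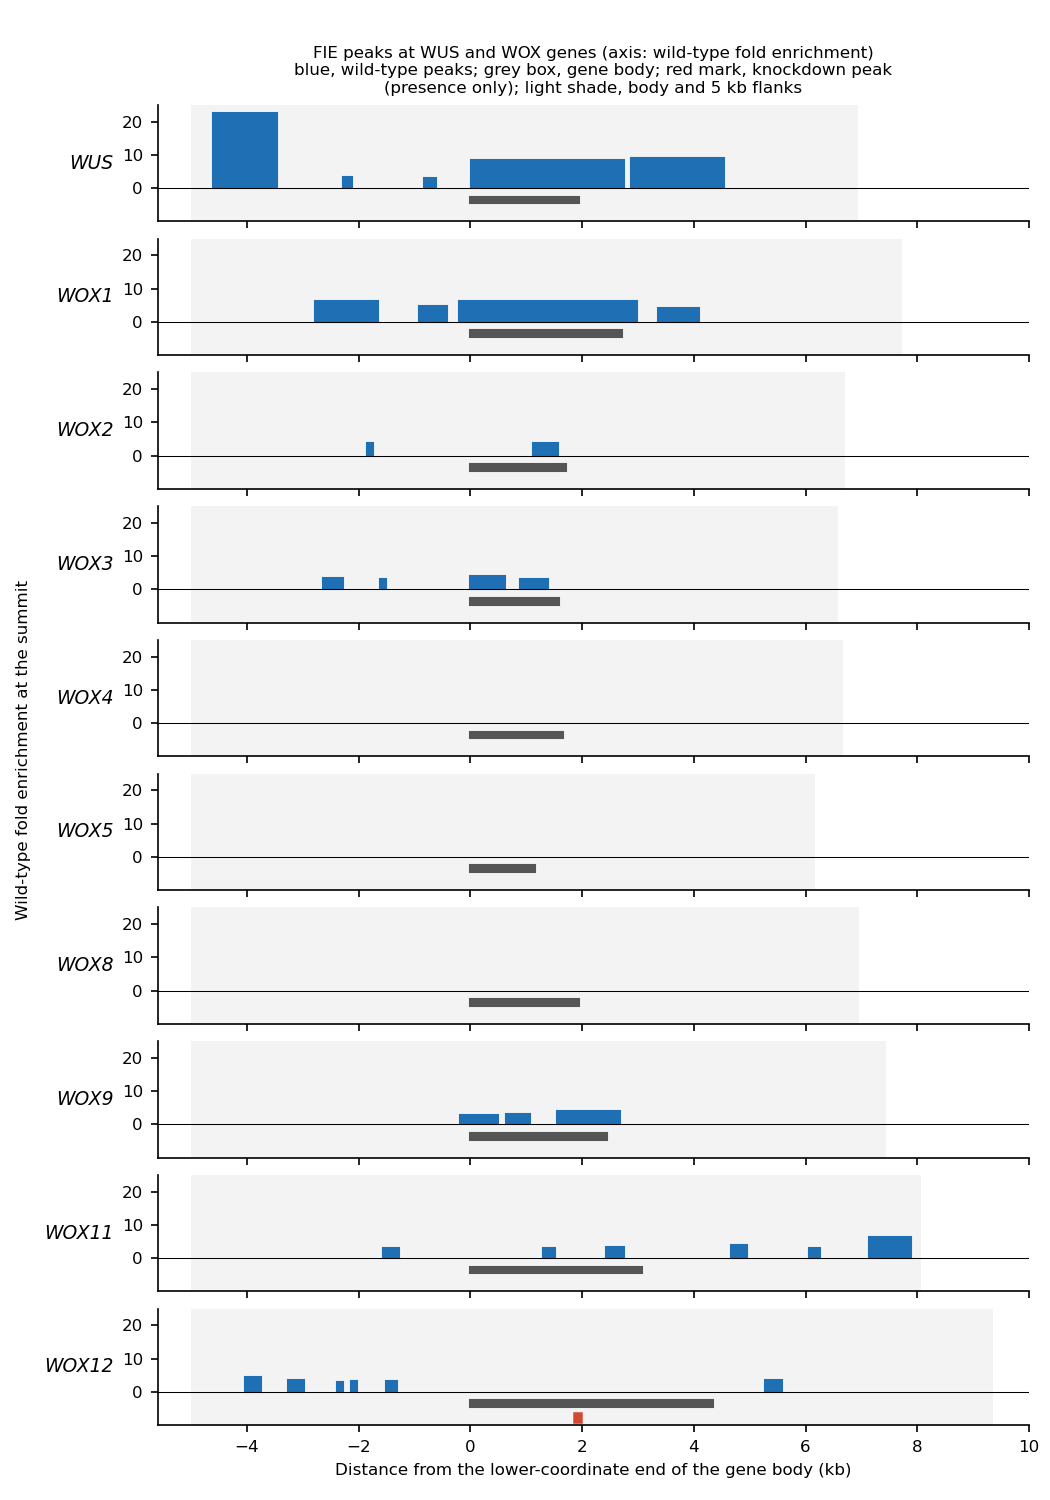
Peaks at the 10 genes, with distance from the lower-coordinate end of the gene body in kb on the horizontal axis and wild-type fold enrichment on the vertical axis. Blue rectangles are wild-type peaks drawn to scale, grey boxes are gene bodies and the red mark is the single knockdown peak, at WOX12. WUS and WOX1 carry broad peaks, and the panels of WOX4, WOX5 and WOX8 are empty.

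WUS had the highest fold of the 10 genes, on the body and in the window, and the greatest peak length in its window. A wild-type peak of 2745 bp (chromosome 2, 7808883 to 7811627) covered 99.4% of its body, with a fold of 8.34. Among the 2727 protein-coding genes with a wild-type body peak, that fold ranked 123rd, within the top 4.51%. A body coverage at least this complete was found at 106 of these genes (3.89%), and the median coverage of a bound gene was 16.3% (interquartile range 5.99% to 42.8%).

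The highest fold near WUS was not on its body. A peak of 1143 bp (chromosome 2, 7804267 to 7805409) had a fold of 22.5, the 9th highest of all 6540 wild-type peaks. It lay 3461 bp from the body on the lower-coordinate side and overlapped no annotated gene. The neighbouring gene AT2G17940, by locus order on the same side, lay 4912 bp from the WUS body. This strong peak was therefore closer to AT2G17940, which had a wild-type body peak of its own (3.18), than to WUS. A link of the strong peak to either gene was not tested. On the upper-coordinate side, 929 bp from the WUS body, stood a peak of 1669 bp with a fold of 9.16 (chromosome 2, 7811741 to 7813409). It overlapped the neighbouring gene AT2G17960. Between WUS and the strong lower peak were 2 short peaks, of 165 bp at a fold of 3.40 and of 200 bp at 3.04. The 5 peaks spanned 9143 bp and covered 49.6% of the WUS window, the 30th highest share among all 27444 protein-coding genes. The median over genes with any wild-type peak in their window was 3.07%. In the knockdown list the peak nearest to the WUS body was 46369 bp away. The 3 genes whose strongest wild-type body fold came closest to that of WUS, also without a knockdown body peak, were AIL5 of the AINTEGUMENTA-like family (8.34), WRKY13 (8.35) and the bHLH gene IBH1 (8.35). This likeness rests on 2 peak lists.

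WOX1 and WOX3 act together in the outgrowth of the leaf blade and of floral organs, and WOX3 is also called PRESSED FLOWER. WOX1 was covered over 100% of its body by a peak of 3196 bp (chromosome 3, 6160524 to 6163719) with a fold of 6.25. That peak was the 33rd longest of the wild-type list. There were 3 further peaks in its flanks. On the lower side they had folds of 6.15 (chromosome 3, 6157955 to 6159084) and 4.65 (6159810 to 6160321), and on the upper side 4.08 (6164094 to 6164831). None of the 3 overlapped another gene. Together the 4 peaks covered 43.8% of the WOX1 window, the 46th highest share of all protein-coding genes. WOX3 was occupied less strongly, by body peaks with folds of 4.02 (chromosome 2, 12262004 to 12262626) and 3.24 (12262906 to 12263397) that covered 69.9% of the gene. Its flank held 2 peaks, with folds of 3.54 and 2.95. The nearest knockdown peak was 39525 bp from the WOX1 body and 8636 bp from the WOX3 body.

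**Figure D2:**
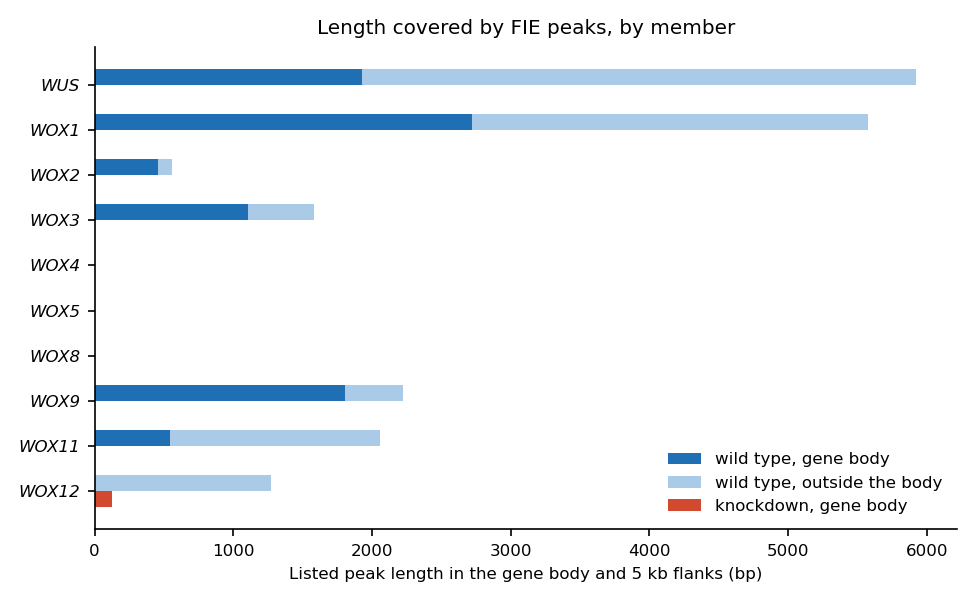
Length in bp covered by listed peaks in the gene body and 5 kb flanks of each gene. Dark blue bars are the wild type on the body, light blue the wild type outside it, and red the knockdown. WUS (5922 bp) and WOX1 (5576 bp) exceed all other members, and the one red bar is the 126 bp at WOX12.

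WOX2, WOX8 and WOX9 pattern the early embryo, WOX2 in the apical and WOX8 and WOX9 in the basal lineage. WOX2 had 1 body peak, of 454 bp and a fold of 3.89 (chromosome 5, 23934455 to 23934908), which covered 26.5% of the gene. A flank peak of 102 bp with a fold of 3.67 lay on the neighbouring gene AT5G59330. WOX9, also known as STIMPY, which sustains meristem growth after germination too, carried 3 body peaks and none in its flanks. Their folds were 2.85 (chromosome 2, 14341175 to 14341848), 3.14 (14341992 to 14342415) and 4.09 (14342913 to 14344037), and together they covered 73.8% of the gene. Its close relative WOX8 had no listed peak, and the nearest wild-type peak was 50901 bp from its body.

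WOX11 and WOX12 take part in the formation of new roots from cut leaves. WOX11 had 2 body peaks, with folds of 2.88 (chromosome 3, 890474 to 890690) and 3.34 (891593 to 891916), covering 17.7% of the gene. Its strongest peak lay in the upper flank, 4065 bp from the body, with a fold of 6.35 (chromosome 3, 896295 to 897047). The other 3 flank peaks had folds of 3.05, 3.99 and 3.08. None of the WOX11 flank peaks overlapped another gene.

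WOX12 was the one member with its peaks the other way round. In the wild type it had 6 flank peaks with folds from 2.99 to 4.51 and none on the body. Of the 6, 4 overlapped its neighbour MYB56, a gene of the R2R3 MYB family. The strongest (chromosome 5, 5876390 to 5876670) lay 3753 bp from the body and on no gene, with MYB56 between it and WOX12. The knockdown peak stood inside the body (chromosome 5, 5882282 to 5882407), was 126 bp long and had a fold of 5.49, the 92nd highest among the 1206 protein-coding genes with a knockdown body peak. The median length of the knockdown list was 147 bp. A knockdown body peak without a wild-type one was found at 3.64% of all protein-coding genes, which is 1000 genes. With no input of the knockdown plants, this peak has no control from the same plants.

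WOX4 of the cambium and WOX5 of the root quiescent centre were free of listed peaks in both groups. The nearest wild-type peak was 13150 bp from WOX4 and 13217 bp from WOX5. The nearest knockdown peak was 30945 and 30672 bp away. Over all protein-coding genes the median distance to a wild-type peak was 8772 bp and that to a knockdown peak 21027.5 bp. Over the 10 members the median distance to a knockdown peak was 30808.5 bp, and the largest, at WOX11, was 164163 bp.

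Among the genes bound in the wild type, the members ranged from near the top to the middle of the list. By strongest body fold WUS ranked 123rd and WOX1 244th of 2727, followed by WOX9 at 706th, WOX3 at 745th, WOX2 at 838th and WOX11 at 1422nd. The folds of WOX9 (4.09), WOX3 (4.02) and WOX2 (3.89) were close to each other, and the lists give no replicate spread to order them. The median strongest fold of the 6 genes was 4.05, against 3.37 (interquartile range 3.08 to 4.13) for all bound protein-coding genes. At least 4 wild-type peaks in the window were found at 5 of the 10 members, WUS, WOX1, WOX3, WOX11 and WOX12, and at 2.06% of all protein-coding genes. At WOX12, 4 of the 6 peaks lay on the neighbouring gene MYB56.

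**Figure D3:**
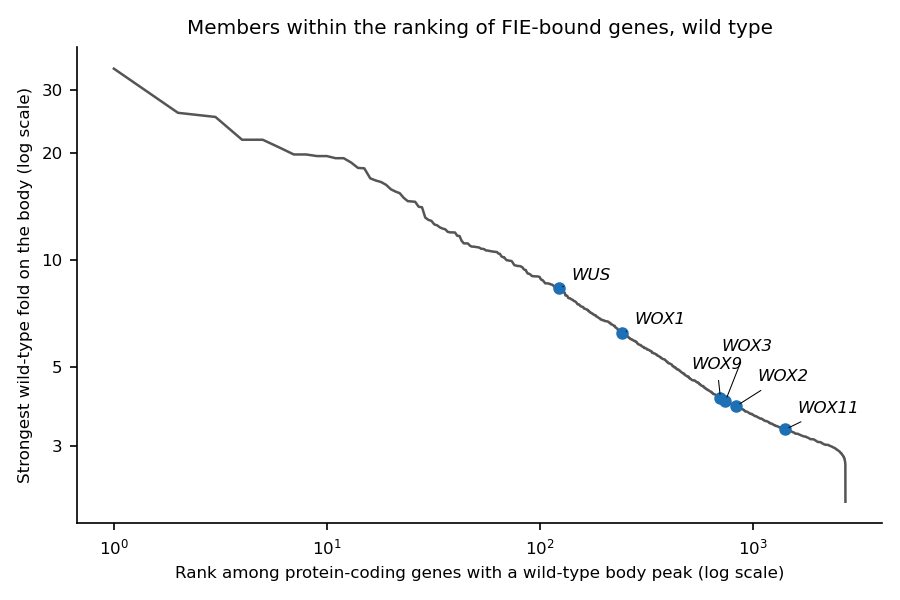
Strongest wild-type fold on the gene body (log scale) against its rank among the 2727 protein-coding genes with a wild-type body peak (log scale). The grey line is all genes and the blue points are the 6 bound members, from WUS at 8.34 to WOX11 at 3.34.

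Judged by the background at their peaks, the lists appear to differ in depth, which limits what a missing knockdown peak says. The fold and p-value of each peak fix its read pileup and background. Where summits of both lists lay no more than 30 bp apart (874 pairs), the median ratio of knockdown to wild-type background was 0.471. Each wild-type peak was scaled by this ratio and set against the lowest −log10 p of the knockdown list, 12.4. On this scale 11 of the 30 peaks would still have been listed, 4 on bodies and 7 in flanks. Thinning the reads gave 11.98 of the 30 expected to pass, and 0 overlapped a knockdown peak. Of the 5047 peaks in the windows of all protein-coding genes, 1248 were expected to pass, against the 302 that overlapped one. Among the 1026 of these that would have passed singly, 110 did (10.7%). The scaling assumes equal occupancy in both groups and one fragment length. It also takes the background ratio as the depth ratio, since depth itself is not given.

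Among the body peaks, those of WUS and WOX1 lay furthest above this limit. The WUS body peak had a recovered pileup of 171 reads over a background of 19.6, and its scaled −log10 p was 46.5. Its strong lower flank peak, with 406 reads over 17.1, scaled to 186. At WOX1 all 4 peaks stayed above the limit, from 13.7 to 30.4. The lowest of them, the upper flank peak, was borderline, with a chance of passing after thinning of 0.663. WOX2 and WOX3 were borderline as well: their strongest body peaks scaled to 12.8 and 13.3, with a chance of 0.620 and 0.632. None of the WOX9 and WOX11 body peaks passed, the highest being 11.2 and 7.94. After thinning, the strongest WOX9 body peak still had a chance of 0.447 and the strongest WOX11 body peak one of 0.0310. A loss on the WOX11 body was not detectable at the knockdown depth, and one on the WOX9 body could have been missed. In the flanks, 1 peak passed at WOX11 (25.8) and 1 at WOX12 (15.5). With flanks included, 6 members had a peak strong enough to pass, against 9.4% of all protein-coding genes. WOX11 and WOX12 were counted here through these flank peaks alone, and MYB56 lay between WOX12 and its peak. A wild-type body peak strong enough to pass was therefore present at 4 members, against 2.71% of all protein-coding genes, and none of the 4 had a knockdown body peak, as for 90.1% of all genes with such a peak. The WOX12 knockdown peak, with 49 reads over 8.11, would correspond to a −log10 p of 44.9 at the wild-type depth.

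**Figure D4:**
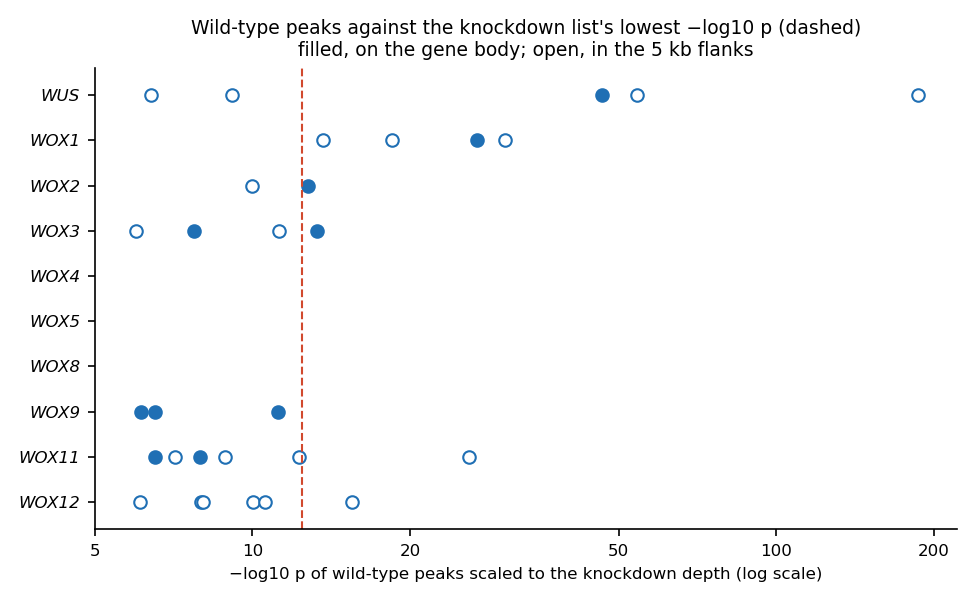
The −log10 p of each wild-type peak after scaling to the knockdown depth (log scale), by gene. Filled points are body peaks, open points flank peaks and the dashed line the lowest −log10 p of the knockdown list, 12.4. The WUS and WOX1 body peaks lie well to the right of the line at 46.5 and 26.9, whereas all WOX9 body points lie to its left.

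The peak numbers rise along the chromosomes with gaps, so some numbered calls are not in the lists. In the wild type 6 numbers without a listed peak fell between the peaks that flank the WOX12 body (chromosome 5, 5879107 to 5885693). This is 9.11 per 10 kb, against 2.40 per 10 kb genome-wide. Around the WOX11 body 4 such numbers fell within 5952 bp (6.72 per 10 kb). Of the 3 members with no wild-type peak in the window, WOX4 had 3.77 per 10 kb over a stretch of 55773 bp. WOX8 had 3.21 over 130998 bp, and WOX5 had 0.943 over 42433 bp. In stretches this long the calls need not lie near the gene. The remaining members ranged from 2.06 (WOX2) to 2.86 (WUS) per 10 kb. The exact positions and strengths of the calls without a row are not given, nor is the reason why they have none. WOX12, WOX4, WOX5 and WOX8 can therefore not be called free of FIE in the wild type. In the knockdown list, the stretches around members held between 0.929 (WOX3) and 3.11 (WOX4) such numbers per 10 kb, with 2.95 around WUS, against 2.99 genome-wide. Of the 35125 numbers of the wild type 18.6% were listed, and of the 40491 of the knockdown 12.1%.

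Of the 23 other annotated genes that reach into the members' windows, 4 had a wild-type peak on the body and 0 a knockdown peak. The 4 were AT2G17940 and AT2G17960 beside WUS, AT5G59330 beside WOX2 and MYB56 beside WOX12. All 4 were among the 19 protein-coding neighbours. The shares of all protein-coding genes were 9.94% and 4.39%, so 0 of 19 is close to the knockdown share. Of the 20 flank peaks, 14 lay on no annotated gene, for which no genome-wide share is given here.

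Of the 5 other genes of the family, 0 had a listed peak on the body and 1 had a wild-type peak in its window, against 9.94% and 35.7% of all protein-coding genes. WOX6, WOX10, WOX13 and WOX14 had no peak in either list in their windows. WOX7 had 1 flank peak in the wild type, 318 bp from its body, with a fold of 3.58, and 5 numbers without a listed peak fell within the 11966 bp that hold its body. By clade, wild-type body peaks were present at 4 of the 8 genes of the WUS clade (WUS and WOX1 to WOX7). They were present at 2 of the 4 genes of the intermediate clade (WOX8, WOX9, WOX11 and WOX12) and at 0 of the 3 of the ancient clade (WOX10, WOX13 and WOX14), the clade shared with mosses and algae. The share of all protein-coding genes was 9.94%, so 0 of 3 is close to it.

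Of 37 genes that signal to WUS and WOX proteins, work with them or act downstream of them, 16 had a wild-type body peak and 1 a knockdown body peak, against 9.94% and 4.39% of all protein-coding genes. The counts by role below read against the same shares, and counts such as 1 of 9 are close to them. The peptide signals CLV3, CLE40, CLE41, CLE42 and CLE44, which limit WUS or act on WOX4 and WOX5, were bound at 2 of 5, CLE41 and CLE44, with folds of 3.14 and 3.16. CLV3 had a flank peak alone (4.03). Of 9 receptor genes 1 was bound, CRN, at a fold of 3.28. CLV1 and CLV2 had flank peaks and no body peak. Among the HAM genes, whose GRAS-domain proteins partner with WUS, 2 of 4 were bound, HAM1 (4.57) and HAM3 (3.03), the latter by 14 bp of its body. The highest fold in the HAM windows, 5.70, lay in the flank of HAM2. HAM3 also had a knockdown peak in its flank. Of the 5 TOPLESS corepressor genes 1 was bound, TPR3 (2.80), by 76 bp of its body.

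Of the 14 targets and co-acting regulators, 10 were bound in wild-type plants and 1 in the knockdown. The 5 highest folds were at YAB1 (16.98) of leaf polarity, AG (14.7), the floral gene that WUS activates, PLT2 (10.8) of the root stem cell niche, STM (8.51) of the shoot meristem and KAN1 (8.13) of abaxial leaf identity. AG was the one gene with a knockdown body peak, where 2 peaks covered 408 bp. At STM, as at WUS, the highest window fold, 26.1, lay off the body. This also held at WOX11 and at other genes of the list, such as PLT1, HAM3, CLE41 and CLE44, so it was not particular to STM and WUS. Across the 37 genes a wild-type body peak expected to pass at the knockdown depth was present at 7, against 2.71% of all protein-coding genes.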

How the data were processed

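The authors deposited 1 narrowPeak list per anti-FIE group. Per the submitters' processing notes, the build was TAIR10 and the tools included MACS2 2.1.0.20151222, bedtools and Bowtie2, with no roles stated. How the authors combined replicates and input is not stated. Per the deposited layout, a row carries a score, a fold ratio for the summit, its −log10 p-value and q-value, and an offset. In the authors' deposited table every −log10 q-value exceeds 10, and the score is 10 times that value cut to a whole number. Depth per library is unknown.

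Gene bodies came from the RefSeq table of TAIR10.1, taken to share the nuclear coordinates of TAIR10. Only peak coordinates are printed. Strand and exons are missing from it, so flanks are named by coordinate side, and introns, exons and UTRs were not told apart. No sequence was used and the planned motif search was not run. Pileup and background were solved from fold (pseudocount 1) and −log10 p under a Poisson model, with a largest misfit of 7.27e-04. The code was run on data simulated under the same Poisson and thinning rules, which checks the calculation and not whether these rules hold for the deposited lists. Analysis used Python 3.11.15, numpy 2.4.6, scipy 1.17.1 and pandas 2.3.3.

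The rule for named genes took all 10 members, the 5 other WOX genes, and from a pathway list those with a knockdown peak and the 5 with the highest wild-type body fold. Others of that list were named after their values were seen. Of 38 genes on the list 1, CDF4, could not be matched. Members and lists were chosen with earlier results of these data known.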

Additional observations from a re-analysis of the deposited data

How the results depend on the processing

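The counts of members with a peak kept within 1.5 times their values under all alternatives run, with 1 exception. With flanks of 10 kb, 2 members had a knockdown peak in place of 1, the added one being WOX3. With the summit inside the region, or at least 50% of the peak inside it, 6 members kept a wild-type body peak. The upper 50% of each list by q gave 5, without WOX11. Wild-type peaks strong enough for the knockdown depth gave 4, without WOX9 and WOX11. The number of body peaks expected to pass, 3.79, was 3.79 with the ratio of the lowest backgrounds and 3.90 with the lowest −log10 p of the wild-type list. No paired analysis was possible because each list pools its group and carries no replicate values, and for the same reason leaving out replicates was not run.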
